A study of Mus musculus with 3 samples.

Results

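The genes described here are 41 named genes of the actin cytoskeleton, of the Hippo pathway effectors YAP and TAZ, and of the transforming growth factor β (TGF-β) ligands and their response. They were chosen by name, with earlier results of these data known, among the 15287 genes of a gene expression table. The table came from MC3T3-E1 cells, a mouse preosteoblast line derived from calvaria and labelled wild type, and it held 1 RNA-sequencing library for each of 3 conditions. The CTL library came from cells given no special treatment. The Ti library came from cells exposed for 24 h to titanium particles at 10 μg/cm², the kind of wear debris that a joint implant sheds, and for the Ti+Se-Met library the particles were joined for 24 h by 5 μM selenomethionine (Se-Met), an amino acid that carries selenium. No library of Se-Met without particles was analysed here, and no condition had a second library, so none of the differences below has a replicate check or a p-value.

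Actin filaments, myosin and the adhesion plaques that anchor them to the matrix give a cell its tension. When filaments assemble, the pool of free actin monomers shrinks, the coactivator MRTF is released from them and, with the transcription factor SRF, drives genes whose promoters carry a CArG box, many of which encode actin and its partners. Tension also favours nuclear YAP and TAZ, which bind DNA through the TEAD factors, and TGF-β signalling through SMAD proteins raises many of the same contractile genes.

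Values are FPKM, in which fragments are divided by transcript length and by the mapped total. Levels can be compared between genes, and between libraries only as far as the RNA composition of the libraries is alike. A gene passed the 2-fold rule when log2(FPKM + 1) differed by at least 1 between libraries, and higher or lower alone states only the direction. The rule was applied to the 11137 genes that reached 1 FPKM in at least 1 library. Of the 41 genes, 39 passed this filter, and Cnn1 and Ltbp2 did not. Folds are plain ratios of FPKM, and the interval beside a fold is a 95% interval from the fragment numbers behind it, which covers counting error only and compares libraries, not conditions. The libraries held an estimated 14300000 (CTL), 14600000 (Ti) and 10350000 (Ti+Se-Met) fragments, read from the smallest steps between low values. The FPKM of all genes summed to 448285, 526017 and 514568, so other scalings were tried. Across all genes tested the median log2 difference of Ti from CTL was 0.08 as deposited, -0.13 after scaling to a common total (TPM), 0.04 by median-of-ratios and -0.04 by the upper quartile, and the median of Ti+Se-Met from Ti was -0.06, -0.03, 0.00 and 0.00 in that order. Of 10 osteoblast markers 7 passed the filter, with Sp7, Bglap and Ibsp below 1 FPKM in every library. In such bulk RNA, fewer cells of a type and less RNA per cell cannot be told apart.

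Promoter windows of 6 of the genes are shown because they hold the DNA motifs that TEAD factors and SRF are known to bind. Windows of 300 bases, 250 before and 50 after a transcription start, came from RefSeq (assembly GRCm38.p6) and matched 33 of the 41 genes, with 39 windows. The TEAD motif was searched as CATTCC on both strands, so that a match on the other strand reads GGAATG, and the CArG box as CC, any 6 bases of A or T, and GG, a pattern that reads alike on both strands. Matches stand in capitals and no TEAD match overlapped a CArG match.

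Srf encodes the factor that binds CArG boxes, and its own window, chr17:46556113-46556412 on the minus strand, held 2 of them, beginning 82 and 62 bases before the start. Actg1, cytoplasmic γ-actin, held 1 at chr11:120348446-120348745 on the minus strand, beginning 90 bases before the start. Vcl, the adhesion plaque protein vinculin, held both motifs at chr14:20929148-20929447 on the plus strand, with the CArG box 227 and the TEAD motif 143 bases before the start.
Srf: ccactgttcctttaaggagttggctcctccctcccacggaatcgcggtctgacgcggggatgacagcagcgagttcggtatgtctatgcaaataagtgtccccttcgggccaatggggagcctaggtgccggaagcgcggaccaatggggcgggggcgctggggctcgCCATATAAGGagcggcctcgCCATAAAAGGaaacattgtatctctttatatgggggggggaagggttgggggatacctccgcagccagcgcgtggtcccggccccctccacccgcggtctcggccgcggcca
Actg1: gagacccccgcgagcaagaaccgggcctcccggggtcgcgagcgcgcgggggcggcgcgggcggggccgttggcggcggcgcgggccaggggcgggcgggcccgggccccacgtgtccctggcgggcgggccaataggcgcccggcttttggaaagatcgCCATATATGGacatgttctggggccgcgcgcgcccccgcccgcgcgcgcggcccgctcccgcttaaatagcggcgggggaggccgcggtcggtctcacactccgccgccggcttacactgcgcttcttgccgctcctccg
Vcl: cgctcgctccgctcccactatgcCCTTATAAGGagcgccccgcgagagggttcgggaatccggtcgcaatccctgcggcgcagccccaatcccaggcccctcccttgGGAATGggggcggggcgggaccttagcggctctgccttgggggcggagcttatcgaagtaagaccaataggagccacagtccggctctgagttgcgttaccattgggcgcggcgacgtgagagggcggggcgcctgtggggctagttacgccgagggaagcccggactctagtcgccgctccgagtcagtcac

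The other windows shown held TEAD motifs and no exact match to the CArG pattern, which admits only A or T at its inner 6 bases, so that a box with another base there is not counted. Ccn1, a matrix-associated signalling protein widely used as a YAP target, held 1 at chr3:145649936-145650235 on the minus strand, 103 bases before the start. Ankrd1, a muscle ankyrin repeat protein also used as a YAP target, held 2 at chr19:36119795-36120094 on the minus strand, 210 and 123 bases before the start. Acta2, smooth muscle α-actin, held 1 at chr19:34255324-34255623 on the minus strand, 146 bases before the start.
Ccn1: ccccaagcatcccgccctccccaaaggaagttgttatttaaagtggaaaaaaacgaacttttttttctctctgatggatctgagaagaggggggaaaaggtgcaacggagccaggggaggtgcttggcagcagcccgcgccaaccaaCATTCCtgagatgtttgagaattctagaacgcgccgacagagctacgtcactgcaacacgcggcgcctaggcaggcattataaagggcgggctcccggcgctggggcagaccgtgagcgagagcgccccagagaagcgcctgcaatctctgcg
Ankrd1: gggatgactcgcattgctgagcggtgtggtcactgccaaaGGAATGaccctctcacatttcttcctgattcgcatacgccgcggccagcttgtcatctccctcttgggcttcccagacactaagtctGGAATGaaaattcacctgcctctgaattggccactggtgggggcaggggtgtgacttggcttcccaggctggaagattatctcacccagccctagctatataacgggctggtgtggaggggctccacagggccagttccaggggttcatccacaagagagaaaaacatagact
Acta2: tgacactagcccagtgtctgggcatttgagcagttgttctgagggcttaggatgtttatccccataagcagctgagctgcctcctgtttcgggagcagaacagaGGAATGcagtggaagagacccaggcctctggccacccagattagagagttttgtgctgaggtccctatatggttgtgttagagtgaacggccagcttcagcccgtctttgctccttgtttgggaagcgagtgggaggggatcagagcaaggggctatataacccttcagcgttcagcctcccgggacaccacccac

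The genes were abundant in these cells. In the CTL library 17 of the 41 stood at 100 FPKM or more, against 4.34% of all genes listed, and 35 of the 41 stood at 10 FPKM or more, against 43.9% of all genes listed. Their FPKM together summed to 8546 in CTL, 6265 with Ti and 8648 with Ti+Se-Met, which was 1.91%, 1.19% and 1.68% of each library's total. The share was lowest in the Ti library. Cytoplasmic and smooth muscle actins and tropomyosin, calponin and caldesmon genes made up the top of the list, and the least abundant were Ltbp2, Cnn1, Ccn2 and Tagln.

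**Figure D1:**
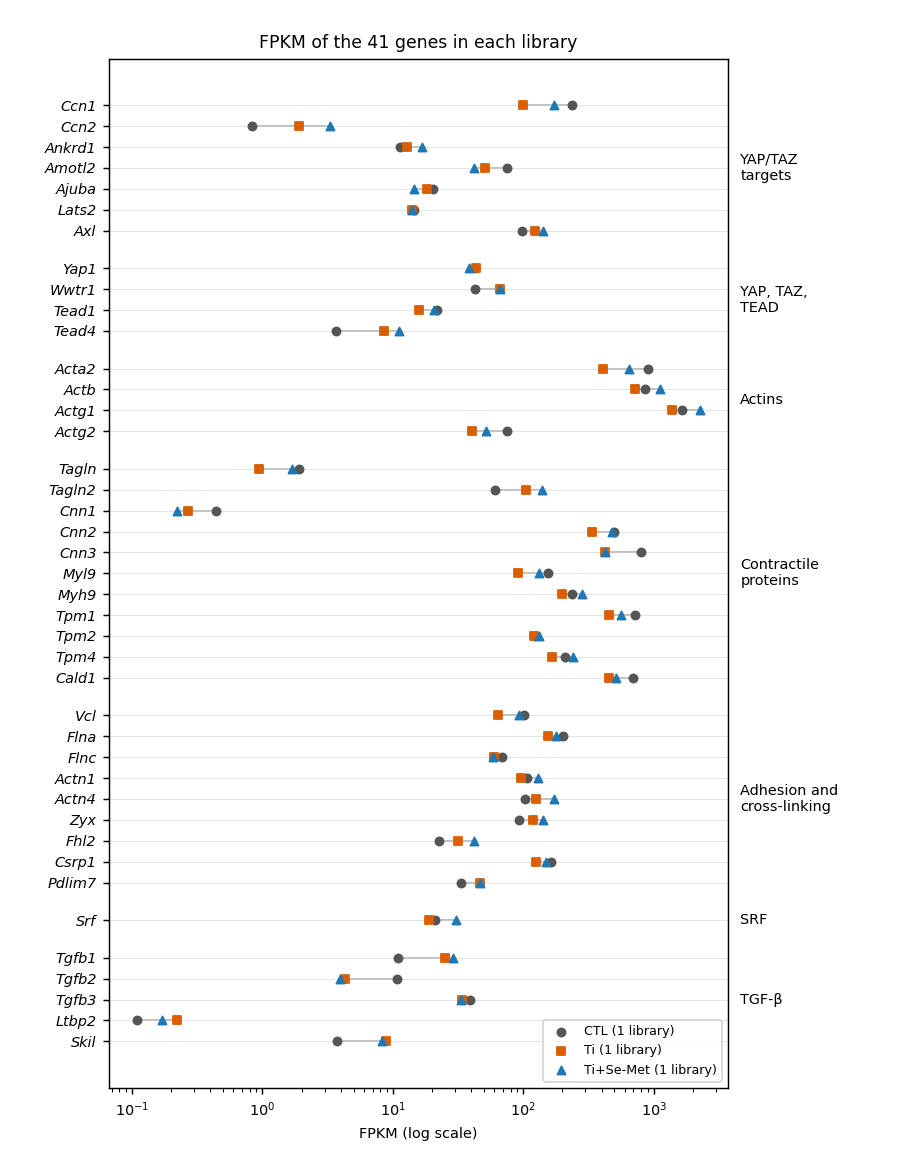
Level of each of the 41 genes in the CTL, Ti and Ti+Se-Met libraries, with FPKM on a log axis and 1 point for each library, grouped by role. The actins and most contractile genes lie at the right with the Ti point to the left of the CTL point, while Tgfb1, Skil and Tead4 have the CTL point leftmost.

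Between the Ti and the CTL library, all 4 actin genes and 10 of 11 contractile genes were lower, and a few TGF-β and TEAD genes were higher. By the 2-fold rule Ccn1, Acta2 and the ligand gene Tgfb2 were lower, which is 3 of 39 genes or 7.69%, against a background of 3.64% of all genes tested. Tead4, Tgfb1 and the SMAD co-repressor gene Skil were higher, again 3 of 39 or 7.69%, against 3.63% of all genes. The split of 3 higher and 3 lower depended on the scaling, since it became 0 higher and 5 lower under TPM and under upper-quartile scaling and 2 higher and 3 lower under median-of-ratios. Shares of all genes past 2-fold under these scalings were not counted. Smaller differences leaned to lower levels, with 26 of the 39 genes lower in Ti and 13 higher, whereas 55.3% of all genes tested were higher (40.3% under TPM). The median log2 difference was -0.21 for the 39 genes beside 0.08 for all genes, and -0.44 beside -0.13 under TPM. Of all 41 folds, 24 had an interval below 1 and 11 an interval above 1, and 6 included 1.

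Between Ti+Se-Met and Ti, most of the genes stood higher with Se-Met, by less than 2-fold. Of the 39 genes 0 passed the 2-fold rule in either direction, and of all genes tested 0.162% passed it upward and 0.0629% downward. At 1.5-fold, 5 of the 39 genes were higher (12.8%), namely Ccn1, Acta2, Actb, Actg1 and Srf, against 0.844% of all genes, and 0 were lower against 1.29%. The number higher at 1.5-fold was 6 under TPM and 8 under median-of-ratios and upper-quartile scaling, where 0.997%, 1.28% and 1.29% of all genes passed. In direction alone 32 of the 39 genes were higher in Ti+Se-Met, compared with 38.5% of all genes tested. Under each of the other scalings 34 of 39 were higher, beside 43.9% (TPM), 49.6% (median-of-ratios) and 50.1% (upper-quartile) of all genes. Their median log2 difference was 0.34 beside -0.06 for all genes. Intervals lay above 1 for 27 of the 41 genes and below 1 for 3, which were Amotl2, Ajuba and Yap1, although the interval of Yap1 reached 1 under upper-quartile scaling.

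Set beside CTL, the Ti+Se-Met library was not uniformly closer to or farther from it. By the 2-fold rule 4 of the 39 genes (10.3%) were higher than in CTL, namely Ccn2, Tead4, Tagln2 and Tgfb1, against 2.64% of all genes, and Tgfb2 alone (2.56%) was lower, against 3.32%. Under TPM these numbers were 3 higher and 3 lower. The share of all genes past 2-fold under TPM was not counted, and in direction alone 35.7% of them were higher. Of all 41 folds of Ti+Se-Met over CTL, 19 had an interval above 1 and 17 below. The median log2 difference from CTL was -0.05 for the 39 genes and 0.01 for all genes. The comparisons share libraries and are not independent of each other, so each gene is given below by its level in all 3.

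**Figure D2:**
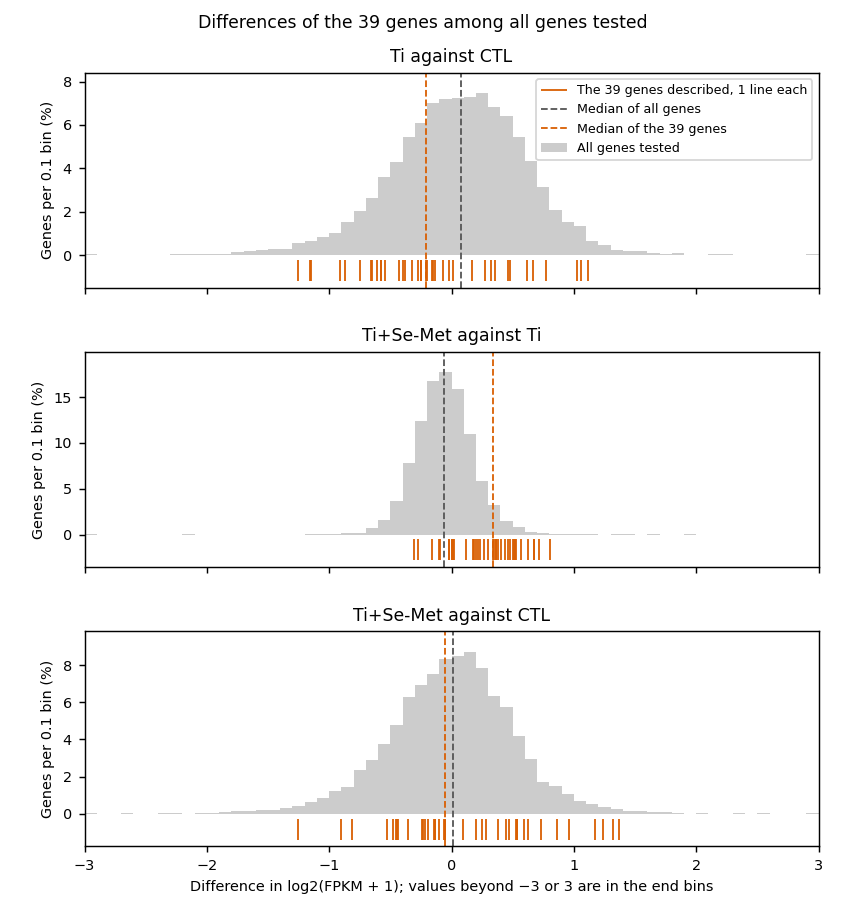
Differences of Ti from CTL, Ti+Se-Met from Ti and Ti+Se-Met from CTL on the log2(FPKM + 1) scale, with the share of all 11137 genes tested in each bin as grey bars, the 39 genes as marks and the medians as dashed lines. The marks lie mostly left of the median of all genes (0.08) for Ti against CTL and mostly right of it (-0.06) for Ti+Se-Met against Ti.

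All 4 actin genes were lower with Ti than in the CTL library, and all 4 were higher in Ti+Se-Met than with Ti alone, under each scaling tried. Acta2 stood at 906 FPKM in CTL, 408 with Ti and 650.0 with Ti+Se-Met. The Ti level was 0.450 of the CTL level (interval 0.440 to 0.461), the Ti+Se-Met level was 1.59 times the Ti level (1.55 to 1.64), and Ti+Se-Met stayed at 0.718 of CTL. Actg2, smooth muscle γ-actin, was placed in the same order at a lower level, with 75.2 FPKM in CTL, 40.7 with Ti and 51.7 with Ti+Se-Met. The muscle-type actins were thus highest in CTL.

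The cytoplasmic actins, which build the filaments of every cell, were in contrast highest in Ti+Se-Met. Actb, β-actin, stood at 861 FPKM in CTL, 726 with Ti and 1121 with Ti+Se-Met, which gave 0.843 of CTL in Ti and 1.30 times CTL in Ti+Se-Met. Actg1 had the highest level of all 41 genes, 1661 FPKM in CTL, 1374 with Ti and 2261 with Ti+Se-Met, and its Ti+Se-Met level was 1.65 times that of Ti (1.61 to 1.68). The 4 genes encode near-identical proteins and have similar coding sequences, so fragments may be divided between them imperfectly, and their sum is less exposed to this. Summed, the actins gave 3503 FPKM in CTL, 2548 with Ti and 4084 with Ti+Se-Met. Acta2 supplied 25.9% of that sum in CTL, 16.0% with Ti and 15.9% with Ti+Se-Met, and Actg1 supplied 47.4%, 53.9% and 55.4%. The composition of the actin pool therefore differed from CTL in both treated libraries by similar shares, while its total as deposited was lowest in Ti and highest in Ti+Se-Met. How far Ti+Se-Met stood above CTL depended on the scaling. Under TPM its fold over CTL was 1.13 for Actb and 1.19 for Actg1, beside 1.30 and 1.36 as deposited.

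Among the 11 contractile and filament-binding genes, 10 were lower with Ti than in CTL, 10 were higher in Ti+Se-Met than in Ti, and the median log2 differences were -0.58 and 0.40. The 1 gene higher in Ti was Tagln2, and the 1 lower in Ti+Se-Met than in Ti was Cnn1. Cald1, caldesmon, which binds actin and restrains myosin, was at 691 FPKM in CTL, 454 with Ti and 511 with Ti+Se-Met. Tpm1, a tropomyosin that lies along the filament, was at 720.4, 456 and 561 FPKM in the same order, and its Ti level was 0.632 of CTL. Both had the CTL library highest and the Ti library lowest.

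The other tropomyosins differed from Tpm1. Tpm4 was at 209.7 FPKM in CTL, 167 with Ti and 240.5 with Ti+Se-Met, so that Ti+Se-Met was the highest, although the order of Ti+Se-Met and CTL turned under another scaling. Tpm2 was nearly level, with 123 FPKM in CTL, 122 with Ti and 132 with Ti+Se-Met, and the interval of its Ti to CTL fold, 0.941 to 1.04, included 1 as deposited but lay below 1 under TPM and upper-quartile scaling. Tpm1 made up 59.5% of the summed tropomyosins, Tpm3 included, in CTL, 47.7% with Ti and 48.9% with Ti+Se-Met. Tropomyosin paralogs share sequence, and the same caution applies to how their fragments were divided.

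Calponins bind actin and dampen the myosin ATPase, and their 2 abundant genes parted in the Ti+Se-Met library. Cnn2 was at 500.3 FPKM in CTL, 334 with Ti and 483 with Ti+Se-Met. Cnn3 was at 793 FPKM in CTL, 421 with Ti and 423 with Ti+Se-Met, that is 0.531 of CTL in Ti (0.519 to 0.543) and a Ti+Se-Met to Ti fold of 1.01 with an interval of 0.977 to 1.03. Cnn2 thus lay near its CTL level with Se-Met while Cnn3 lay within counting error of its Ti level as deposited and under TPM. Its interval lay above 1 under upper-quartile scaling, at 1.03 to 1.09, and also under median-of-ratios. Cnn1, the smooth muscle calponin, was near the floor with an estimated 14, 9 and 5 fragments, and no difference was detectable at this depth.

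Myh9 and Myl9, the myosin genes among those described, were likewise lowest with Ti. Myh9, the heavy chain of non-muscle myosin II, was at 237 FPKM in CTL, 199.6 with Ti and 283 with Ti+Se-Met. Myl9, a regulatory light chain of myosin, was at 155 FPKM in CTL, 91.8 with Ti and 131 with Ti+Se-Met, or 0.592 of CTL in Ti and 1.43 times Ti in Ti+Se-Met. Myh9 was highest in Ti+Se-Met and Myl9 in CTL. Of the further myosin genes that passed the filter, Myl12a, Myl12b and Myh10 were also lowest with Ti. Myl6 differed and was lowest in Ti+Se-Met, at 1270 FPKM in CTL, 1077 with Ti and 1038 with Ti+Se-Met.

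The transgelins, calponin-related proteins that crosslink actin, lay on opposite sides of CTL in the Ti library, and both were higher in Ti+Se-Met than with Ti. Tagln, a smooth muscle marker also known as SM22α, was at 1.90 FPKM in CTL, 0.94 with Ti and 1.70 with Ti+Se-Met, on only 39, 20 and 25 fragments, so that its Ti+Se-Met to Ti fold of 1.81 had an interval of 0.940 to 3.35. Tagln2, the widely expressed relative, was at 61.2 FPKM in CTL, 105 with Ti and 139 with Ti+Se-Met. Tagln2 was 1.72 times CTL in Ti (1.60 to 1.84) and 2.28 times CTL in Ti+Se-Met, and it was the contractile gene whose levels stood in the order CTL, Ti, Ti+Se-Met.

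**Figure D3:**
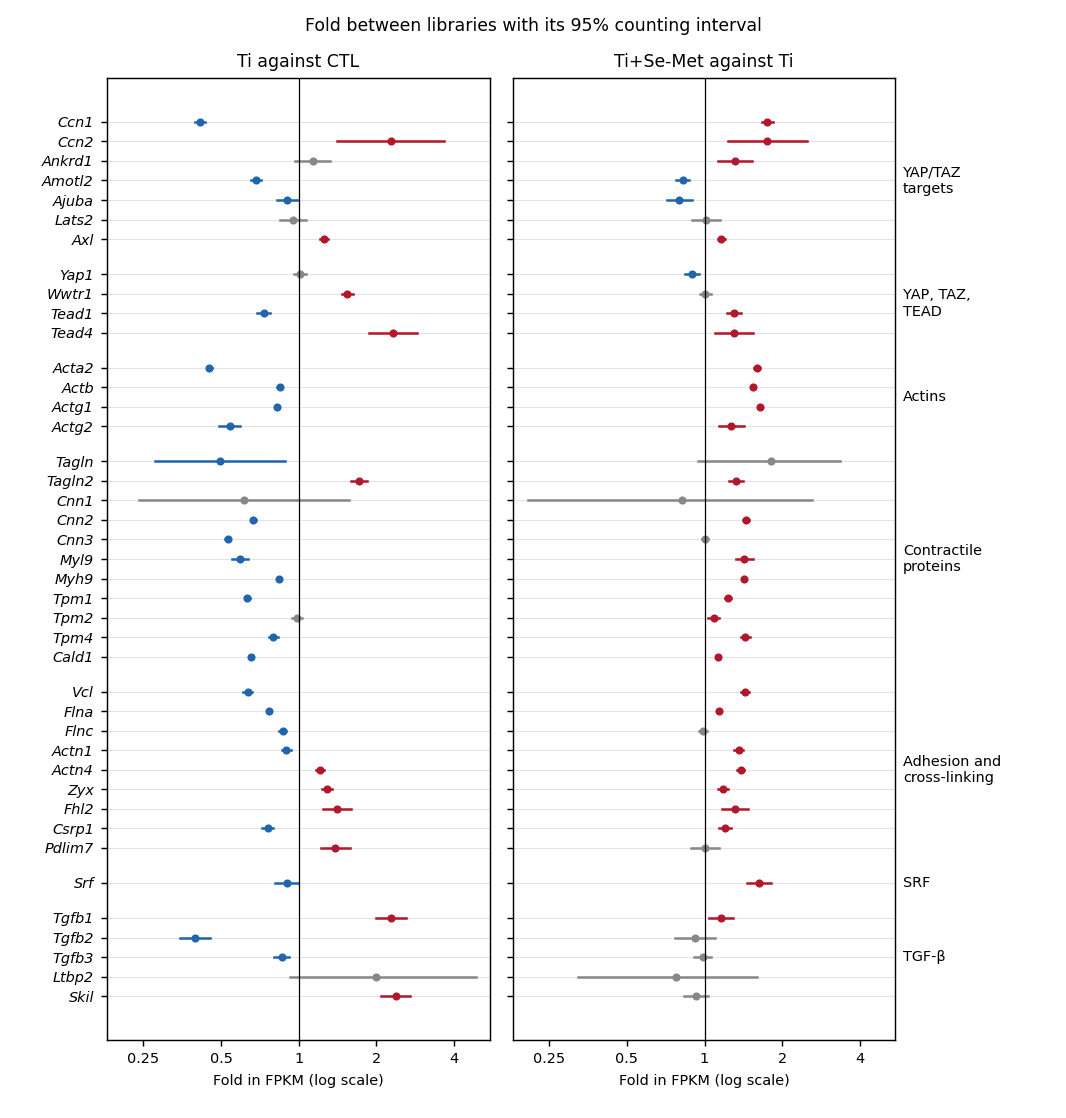
Fold of Ti over CTL and of Ti+Se-Met over Ti for each of the 41 genes on a log axis, with horizontal bars for the 95% counting interval and grouping by role. Actin and most contractile genes lie below 1 for Ti over CTL and above 1 for Ti+Se-Met over Ti, and the widest bars belong to Tagln, Cnn1, Ltbp2 and Ccn2, which had few fragments.

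The 9 genes of focal adhesions and actin crosslinks split in the Ti library, with 5 lower and 4 higher than in CTL, and 8 of the 9 were higher in Ti+Se-Met than in Ti. Vcl was at 101 FPKM in CTL, 64.2 with Ti and 92.1 with Ti+Se-Met, a Ti level of 0.634 of CTL and a Ti+Se-Met level of 1.44 times Ti. Flna, filamin A, which joins filaments into a mesh, was at 203 FPKM in CTL, 155 with Ti and 177 with Ti+Se-Met. Csrp1, a LIM protein of actin bundles, was at 164 FPKM in CTL, 124 with Ti and 149 with Ti+Se-Met. In these 3 genes the Ti library was lowest and CTL highest.

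The α-actinins crosslink filaments and were highest in Ti+Se-Met. Actn1 was at 107 FPKM in CTL, 95.5 with Ti and 129.6 with Ti+Se-Met, and Actn4 was at 103, 125 and 173 FPKM. The Ti to CTL fold of Actn4 was 1.21 as deposited, and under TPM its interval included 1. Flnc, the muscle filamin, was at 69.0 FPKM in CTL, 59.9 with Ti and 59.1 with Ti+Se-Met, and it was the only 1 of the 9 not higher in Ti+Se-Met than in Ti, an order that turned under another scaling.

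The other 3 genes of this group, which have LIM domains, stood higher with Ti than in CTL. Zyx, zyxin, which gathers at strained filaments, was at 92.8 FPKM in CTL, 119 with Ti and 141 with Ti+Se-Met. Fhl2, a LIM protein that moves between adhesions and the nucleus, was at 22.5 FPKM in CTL, 31.8 with Ti and 41.7 with Ti+Se-Met, so that Ti+Se-Met was 1.85 times CTL. Pdlim7, a PDZ and LIM protein of stress fibres, was at 33.4 FPKM in CTL, 46.2 with Ti and 46.5 with Ti+Se-Met. Its level in the Ti and Ti+Se-Met libraries did not differ beyond counting error.

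Srf was at 20.98 FPKM in CTL, 18.8 with Ti and 30.6 with Ti+Se-Met. The Ti level was 0.898 of CTL (0.807 to 0.997), the Ti+Se-Met level was 1.63 times Ti (1.47 to 1.81), and Ti+Se-Met was 1.46 times CTL. Its levels followed the order of Actb and Actg1. A separate list of 8 immediate early genes, which SRF is known to drive through another cofactor family, differed from that order between CTL and Ti. In Ti 7 of 8 were higher than in CTL, against 55.3% of all genes tested, and 4 were past 2-fold, against 3.63%. Between Ti and Ti+Se-Met, 3 of 8 were higher with Se-Met, near the 38.5% of all genes tested. Junb was at 9.12 FPKM in CTL, 50.4 with Ti and 49.1 with Ti+Se-Met, Egr1 at 6.44, 20.7 and 23.2, Ier2 at 6.28, 17.1 and 15.9, and Fos at 0.43, 3.58 and 3.07.

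The promoters shown above belong to a wider count. A CArG box lay in 17.9% of the 39 windows of these genes and in 1.63% of all 32851 windows of the same length, and a TEAD motif in 46.2% against 14.7%. These shares count windows, 7 from 6 genes for the CArG box and 18 from 16 genes for the TEAD motif. The genes were chosen by name for these pathways, so the shares are not independent of that choice and test nothing. A match describes letters in a window and not a bound site. The 6 genes with an exact CArG match were Actg1, Cnn2, Fhl2, Myl9, Srf and Vcl. All 6 were higher in Ti+Se-Met than in Ti, with log2 differences from 0.38 to 0.72 and a median of 0.52, while over the 136 tested genes with a CArG box in a window the median was -0.05 and 43.4% were higher. Of the 16 genes with a TEAD motif, 12 were higher in Ti+Se-Met than in Ti, with a median log2 difference of 0.20 beside -0.06 over the 1251 tested genes holding the motif. For all 39 genes described, 32 were higher in Ti+Se-Met than in Ti, with a median of 0.34, above that of the 16 with a TEAD motif. From CTL to Ti, 10 of the 16 were lower and 6 higher, and 5 of the 6 CArG genes were lower, beside 26 of all 39 genes. Whether either motif bears on the levels was not tested.

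The 7 genes used as readouts of YAP and TAZ did not move as a block, with 4 lower and 3 higher in Ti than in CTL. Ccn1 had the largest log2(FPKM + 1) difference of Ti from CTL among them, at 238 FPKM in CTL, 98.8 with Ti and 173 with Ti+Se-Met. Its Ti level was 0.416 of CTL (0.397 to 0.435), its Ti+Se-Met level was 1.75 times Ti (1.67 to 1.85), and Ti+Se-Met was 0.729 of CTL. Its close relative Ccn2, connective tissue growth factor, was higher with Ti than in CTL, at a much lower level, with 0.83 FPKM in CTL, 1.90 with Ti and 3.31 with Ti+Se-Met, on 27, 62 and 77 fragments. Ccn2 was 2.29 times CTL in Ti (1.41 to 3.68), which did not pass the 2-fold rule on the log2(FPKM + 1) scale, and 3.99 times CTL in Ti+Se-Met (2.51 to 6.36). From Ti to Ti+Se-Met both were higher by similar folds, 1.75 for Ccn1 and 1.74 for Ccn2.

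The remaining readouts showed smaller differences. Ankrd1 was at 11.4 FPKM in CTL, 12.9 with Ti and 16.9 with Ti+Se-Met, and its Ti to CTL fold of 1.14 had an interval of 0.970 to 1.33 and a direction that turned under another scaling. Axl, a receptor tyrosine kinase, was at 97.5 FPKM in CTL, 122 with Ti and 142 with Ti+Se-Met. Both were highest in Ti+Se-Met, as was Ccn2.

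Amotl2 and Ajuba were instead highest in CTL and lowest in Ti+Se-Met. Amotl2, angiomotin-like 2, which holds YAP in the cytoplasm, was at 74.9 FPKM in CTL, 51.2 with Ti and 42.1 with Ti+Se-Met, so that the level with Se-Met was 0.823 of Ti (0.776 to 0.872). Ajuba, a LIM protein that binds LATS kinases, was at 20.2 FPKM in CTL, 18.3 with Ti and 14.6 with Ti+Se-Met. Lats2, a kinase that phosphorylates YAP and TAZ, was at 14.7, 13.9 and 14.1 FPKM, and none of its differences between libraries exceeded counting error as deposited, though its Ti to CTL interval lay below 1 under TPM and upper-quartile scaling.

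Of the factors themselves, Yap1 was level between CTL and Ti as deposited, while Wwtr1, which encodes TAZ, was higher in both treated libraries. Yap1 was at 42.7 FPKM in CTL, 43.2 with Ti and 38.6 with Ti+Se-Met, with a Ti to CTL fold of 1.01 (0.956 to 1.07) whose direction turned under other scalings. The interval of this Yap1 fold lay below 1 under TPM (0.814 to 0.911) and under upper-quartile scaling (0.869 to 0.973). Wwtr1 was at 42.9 FPKM in CTL, 66.3 with Ti and 66.8 with Ti+Se-Met, a Ti level of 1.55 times CTL (1.47 to 1.62). Wwtr1 made up 50.1% of the summed Yap1 and Wwtr1 in CTL, 60.6% with Ti and 63.4% with Ti+Se-Met.

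The TEAD factors, through which both act, exchanged shares. Tead1 was at 21.7 FPKM in CTL, 15.9 with Ti and 20.7 with Ti+Se-Met, and its Ti level was 0.731 of CTL (0.691 to 0.773). Tead4 was at 3.67 FPKM in CTL, 8.50 with Ti and 11.1 with Ti+Se-Met, 2.32 times CTL in Ti (1.87 to 2.88) and 3.02 times CTL in Ti+Se-Met. As deposited, the sum over the TEAD genes was 48.4 FPKM in CTL, 48.7 with Ti and 56.6 with Ti+Se-Met, and the differences between these sums depend on the scaling. Of that sum Tead1 made up 44.9%, 32.6% and 36.6% and Tead4 7.59%, 17.5% and 19.6%.

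Among the ligands, Tgfb1 and Tgfb2 were on opposite sides of CTL in both treated libraries. Tgfb1 was at 11.0 FPKM in CTL, 25.0 with Ti and 28.9 with Ti+Se-Met, 2.27 times CTL in Ti (1.99 to 2.60) and 2.63 times CTL in Ti+Se-Met. Tgfb2 was at 10.8 FPKM in CTL, 4.28 with Ti and 3.93 with Ti+Se-Met, or 0.398 of CTL in Ti (0.348 to 0.455), and the Ti+Se-Met to Ti fold of 0.918 had an interval of 0.766 to 1.10. Tgfb3, the most abundant of the ligands, was at 39.2 FPKM in CTL, 33.7 with Ti and 33.2 with Ti+Se-Met. As deposited, the sum of the ligand genes varied little, 60.9 FPKM in CTL, 62.9 with Ti and 66.0 with Ti+Se-Met. Of that sum Tgfb1 made up 18.0%, 39.7% and 43.8% and Tgfb2 17.7%, 6.80% and 5.96%. Shares within a library do not depend on the scaling, but the order of the sums between libraries does.

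**Figure D4:**
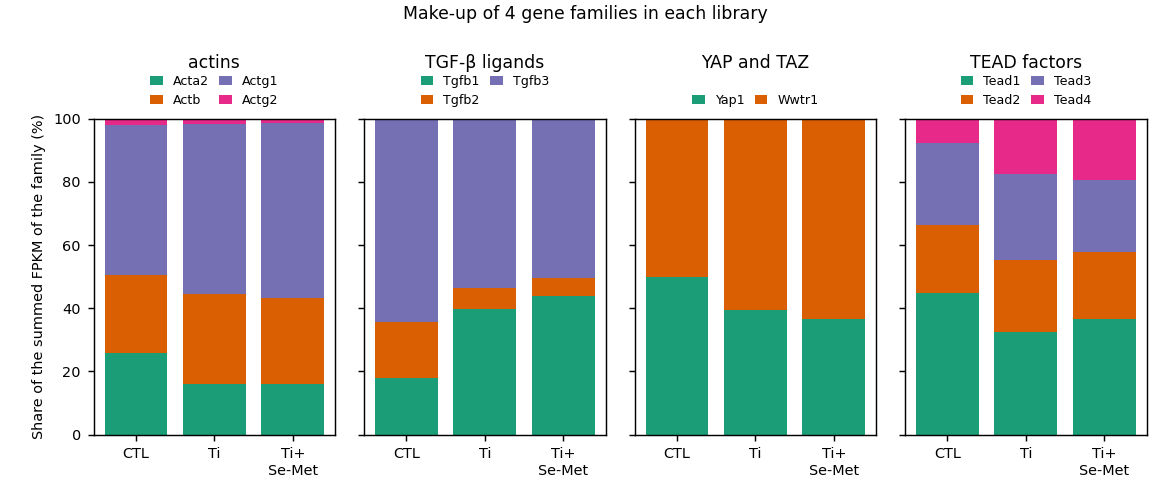
Share of each gene in the summed FPKM of its family, for actins, TGF-β ligands, YAP with TAZ and TEAD factors, in the CTL, Ti and Ti+Se-Met libraries, as stacked bars from 0 to 100%. The Acta2 share of the actins is smaller in both treated libraries than in CTL (25.9%, 16.0% and 15.9%), while the Tgfb1 share of the ligands is larger (18.0%, 39.7% and 43.8%).

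Skil, whose product SnoN represses SMAD targets and is itself induced by TGF-β, was at 3.73 FPKM in CTL, 8.87 with Ti and 8.22 with Ti+Se-Met. The Ti level was 2.38 times CTL (2.09 to 2.70), and Ti+Se-Met did not differ from Ti beyond counting error (0.831 to 1.03). Ltbp2, a latent TGF-β binding protein family member of elastic fibres, was detected at 0.11, 0.22 and 0.17 FPKM on 10, 21 and 11 fragments, with a Ti to CTL interval of 0.927 to 4.89.

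Other genes of these pathways, from lists that hold no actin, YAP or ligand gene named above except where stated, gave the following counts. Over all genes tested, 55.3% were higher in Ti than in CTL and 38.5% were higher in Ti+Se-Met than in Ti. Past 2-fold in Ti, 3.63% of all genes were higher than in CTL and 3.64% lower. Of 18 further Hippo pathway genes, 8 stood higher with Ti than in CTL, 10 lower, and 0 passed 2-fold, and of 12 further YAP targets that passed the filter 4 were higher and 8 lower with 0 past 2-fold. When Ti+Se-Met was set against Ti, 10 of those 12 targets were higher, with a median log2 difference of 0.22. Of 36 further actin regulators, 14 stood higher with Ti and 22 lower, and 31 of the 36 were higher in Ti+Se-Met than in Ti, with a median of 0.20. Past 2-fold against CTL stood Tes, a LIM protein of adhesions (19.6 FPKM in CTL, 52.0 with Ti and 69.8 with Ti+Se-Met), Tmsb4x, the actin monomer binder thymosin β4 (761, 324 and 359 FPKM), and Lmod1, a smooth muscle filament nucleator (10.9, 4.86 and 6.69 FPKM).

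Of 20 further TGF-β pathway genes, 9 were higher and 11 lower in Ti, with Tgif1, a SMAD co-repressor, higher (31.4, 71.0 and 73.5 FPKM) and Thbs1, thrombospondin 1, an activator of latent TGF-β, lower (80.0, 34.1 and 55.8 FPKM).

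Of 14 TGF-β target genes, a list that holds Skil and Ccn2, 8 were higher in Ti than in CTL and 6 lower, and 11 of 14 were higher in Ti+Se-Met than in Ti. Of the matrix genes in this list, Postn, Col1a1 and Col1a2 were lower past 2-fold in Ti. Postn, periostin, was at 2904 FPKM in CTL, 419.5 with Ti and 447 with Ti+Se-Met. Col1a1 was at 1333, 354 and 482 FPKM in that order, and Col1a2 at 2688, 999 and 1257. Fn1 was lower in Ti by less than 2-fold (1400, 1297 and 1756 FPKM). Lox (88.3, 118 and 132 FPKM) and Tgfbi (10.2, 15.2 and 24.35 FPKM) were higher in Ti. The target list thus held genes on both sides of CTL. Under the other scalings the number higher in Ti was unchanged at 8 for this list, but it moved from 8 to between 2 and 6 for the Hippo list, from 14 to between 7 and 11 for the actin regulators, from 9 to as few as 6 for the further TGF-β genes and from 4 to as few as 2 for the further YAP targets.

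Other gene lists moved beside these genes. Of 20 proliferation genes 19 were higher in Ti than in CTL, against 55.3% of all genes tested. In Ti+Se-Met 18 were higher than in Ti, against 38.5% of all genes. Their summed levels were 338, 591 and 708 FPKM. When Ti+Se-Met was set against CTL, 10 of the 20 were higher past 2-fold, against 2.64% of all genes. The largest differences of Ti from CTL among them were in Mcm2 (13.7 FPKM in CTL and 38.4 with Ti), Mcm5 (5.67 and 16.8), Mcm3 (17.1 and 43.5) and Plk1 (11.1 and 26.2), genes of DNA replication and mitosis. The osteoblast markers summed to 5974 FPKM in CTL, 5549 with Ti and 6941 with Ti+Se-Met, a sum in which Spp1, osteopontin, weighed most in both treated libraries (1261, 3706 and 4659 FPKM). Without Spp1 the markers summed to 4713, 1843 and 2281 FPKM, and the other 6 of the 7 that passed were lower with Ti than in CTL, Col1a1, Col1a2 and Alpl (1.51, 0.20 and 0.20 FPKM) past 2-fold. Smooth muscle markers were low, summing to 60.8, 35.3 and 42.2 FPKM, with 4 of 4 passing genes lower in Ti, Myocd not listed and Myh11 at 0.11 FPKM or less. Of the macrophage markers only Cd14 passed (5.70, 16.6 and 14.8 FPKM), and Ptprc, Adgre1, Tyrobp and Itgam were not listed. Skeletal muscle, adipocyte and endothelial markers summed to at most 1.90, 1.69 and 0.24 FPKM in any library. The part of the proliferation and osteoblast lists in the levels above was not tested.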

How the data were processed

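The 3 libraries of MC3T3-E1 cells were 1 for each condition (CTL, Ti and Ti+Se-Met), grouped by the treatment in the labels. The authors deposited FPKM values for each gene, made from total RNA libraries, and the submitters' processing notes name HISAT2, SAMtools, StringTie and the mm9 build. Whether the kit kept the strand is not given in the sources used here. Counts of fragments were not part of the table used here. Per the file headers the table also holds gene annotation, from which the KEGG pathway names were taken. Its accessions are newer than mm9, so no coordinate of it was used, and 0 columns of values were left unmatched. FPKM assumes equal RNA composition. The results were repeated under 3 other scalings (TPM, median-of-ratios and upper quartile), which show how the results move but do not test that assumption.

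Differences were taken on log2(FPKM + 1), with a pseudocount of 1, among genes reaching 1 FPKM in at least 1 library, and a fold of 2 counted as a difference (1.5 as a lower fold). The log2(FPKM + 1) scale understates the change of low genes. The depth of each library was estimated from the steps between low FPKM values of 453 short genes with 1 transcript (350 to 1000 bases, less 150 bases for the fragment), and lay between 13150000 and 15700000 fragments for CTL, 13750000 and 15800000 for Ti and 9700000 and 11350000 for Ti+Se-Met. Fragment numbers from these depths gave exact binomial 95% intervals of folds, which cover counting error only. The depth and interval steps were tested on simulated data made with the same lengths and with counting error only. That test shows that the steps work under their own assumptions, and it cannot show that the deposited values meet them. Python 3.11.15, numpy 2.4.6, pandas 2.3.3, scipy 1.17.1 and matplotlib 3.10.9 were used.

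All 41 genes are named. From each further pathway list and the proliferation list, up to 4 genes past 2-fold are named by the size of their difference of Ti from CTL or of Ti+Se-Met from Ti, and of the cell type lists the summed levels and defining markers are given. Further myosin genes and some matrix genes among the TGF-β targets are named beside them, although below 2-fold. Results of 1 further list and of 1 further gene are not reported here. The genes and lists were chosen with earlier results of these data known. Without a second library of any condition there was no test, and alternatives were the pseudocount, the filter, the scaling and the fold.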

Additional observations from a re-analysis of the deposited data

How the results depend on the processing

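No paired analysis was possible because no condition had a second library, and no library could be left out. Except for 1.5-fold in Ti+Se-Met against Ti, shares of all genes under the alternative settings below were not counted. These counts show how the number moves with the setting and not whether it differs from that of all genes. For Ti against CTL, the 3 genes higher past 2-fold became 0 with a pseudocount of 5, under TPM and under upper-quartile scaling and 6 at 1.5-fold, and the 3 lower became 2 with a pseudocount of 5, where Tgfb2 was at -0.76, 5 under TPM and upper-quartile scaling and 9 at 1.5-fold. The median log2 difference of -0.21 was -0.22 and -0.19 with pseudocounts of 0.1 and 5, -0.20 without the filter, -0.44 under TPM, -0.25 under median-of-ratios and -0.34 under upper-quartile scaling.

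For Ti+Se-Met against Ti, 0 genes were higher past 2-fold and 5 past 1.5-fold. The median of 0.34 was 0.25 with a pseudocount of 5, 0.30 without the filter, 0.37 under TPM, 0.40 under median-of-ratios and 0.41 under upper-quartile scaling. In an alternative chosen after seeing the data, the 5 genes past 1.5-fold became 8 under median-of-ratios and 8 under upper-quartile scaling.

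For Ti+Se-Met against CTL, the 4 genes higher became 2 with a pseudocount of 5 and 9 at 1.5-fold, and the 1 lower became 0 with a pseudocount of 5, 3 under TPM and 3 at 1.5-fold. The median of -0.05 was -0.039 with a pseudocount of 5, -0.23 under TPM, -0.027 under median-of-ratios and -0.11 under upper-quartile scaling. A larger pseudocount shrinks folds of low genes and a lower fold admits more genes by construction, and the cause of the other shifts was not tested.

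No called gene changed sign. Of 205 values of single genes under the alternatives in each comparison, the sign changed in 4 for Ti against CTL (Ankrd1 and Yap1), 6 for Ti+Se-Met against Ti (Flnc and Tgfb3) and 2 for Ti+Se-Met against CTL (Tpm2 and Tpm4). Depth limited Cnn1, Ltbp2, Tagln and Ccn2 most.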

Other observations

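The pathway names in the deposited annotation gave a wider frame. Of 143 tested genes under regulation of actin cytoskeleton, 4 were higher and 9 lower past 2-fold in Ti than in CTL, beside 3.63% higher and 3.64% lower among all genes tested. Their median log2 difference was -0.07 and that of Ti+Se-Met from Ti was 0.05, beside 0.08 and -0.06 for all genes. Of 146 under focal adhesion, 4 were higher and 16 lower, with medians of -0.19 and 0.07. Of 65 under vascular smooth muscle contraction, 2 were higher and 8 lower, with medians of -0.24 and 0.06. The Hippo signaling name (102 genes) had 4 higher and 4 lower, with medians of -0.02 and 0.01, and the TGF-beta signaling name (59 genes) 3 higher and 5 lower, with medians of -0.13 and -0.02. Under TPM the medians of Ti from CTL were -0.28 for regulation of actin cytoskeleton, -0.40 for focal adhesion, -0.47 for vascular smooth muscle contraction, -0.23 for Hippo signaling and -0.33 for TGF-beta signaling, where the median of all genes was -0.13. The TGF-beta median of Ti+Se-Met from Ti turned positive under TPM (0.01), by the upper quartile (0.05) and by median-of-ratios (0.04). These names share genes with each other and with the 41 genes described above.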
